A study of Mus musculus with 14 samples.

Results

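Macrophages given the supernatant of mast cell traps were compared with macrophages given the supernatant of mast cells. The comparison used all 8 treated libraries of a series of 14, which were 3 libraries with trap supernatant and 5 with mast cell supernatant. Libraries were chosen by their treatment label alone. The other 6 libraries, of untreated macrophages, were not in the fit and serve as a background level. Every library came from wild-type (WT) mouse bone marrow-derived macrophages, a culture in which marrow precursors are matured into macrophages, and both treatments lasted 3.5 h. RNA was extracted with the Qiagen RNeasy Plus Micro kit, and poly(A) RNA was sequenced after the Illumina stranded mRNA preparation. The trap material is labelled as coming from mast cell intracellular traps, and the title of the series places it among mast cell processes of inflammatory signalling. The sources used here do not give where the mast cells came from, how traps were formed, or whether the supernatants were matched for amount. The labels leave unsaid whether replicates were separate cultures or animals. The p-values therefore cover the spread among these libraries and nothing wider, and that spread may be technical.

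The labels place each library in batch 1, 2 or 3. Batch 1 held trap replicate 1, mast cell replicates 1 and 4 and untreated replicates 1 and 4. Batch 2 held trap replicate 2, mast cell replicate 2 and untreated replicates 2 and 5. Batch 3 held trap replicate 3, mast cell replicates 3 and 5 and untreated replicates 3 and 6. Total counts of the 8 treated libraries ran from 11729073 to 16491536, so that 3 counts corresponded to 0.168 to 0.283 CPM, which is counts of a gene per 1e6 counts of its library after scaling. Batch accounted for 98.9% of the first principal component of the 8 libraries, which held 40.9% of their variance, and the treatment for 42% of the third, which held 9.23%. The labelled cell type was checked with 26 macrophage markers, of which none was at 0 counts, and their summed level was 17607.5 to 29405 CPM in the treated libraries and 18209 to 27877 CPM in untreated ones. Because these are bulk libraries, fewer cells of a type and less RNA per cell cannot be told apart.

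Of the 22 genes called higher with trap than with mast cell supernatant, 13 were members of 2 lists of interferon genes. Type I interferons are secreted proteins that bind a receptor made of IFNAR1 and IFNAR2. Its kinases JAK1 and TYK2 phosphorylate factors such as STAT2, which joins IRF9 in a complex that binds interferon-stimulated response elements near the start of target genes. In macrophages these targets encode antiviral effectors, sensors of foreign nucleic acid, chemokines, and GTPases that act on vacuoles holding microbes.

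The promoters of the 22 genes were searched for the core letters of that element, which are GAAA, any 2 bases and GAAA on the gene's strand, or TTTC, any 2 bases and TTTC where the element lies on the opposite strand, in the 250 bases before each RefSeq start site (build GRCm38.p6). Stretches of the 6 genes with the smallest p among those holding a match are shown because these genes lead the comparison. Each runs 5′ to 3′ on the gene's own strand, with each match in capitals. Slfn8 lies at chr11:83020811-83020903 (minus strand), Cxcl10 at chr5:92349048-92349139 (minus), Rsad2 at chr12:26456518-26456617 (minus), Ifi208 at chr1:173673562-173673661 (plus), Gm12250 at chr11:58183707-58183806 (plus) and Gbp5 at chr3:142496724-142496823 (plus).
Slfn8: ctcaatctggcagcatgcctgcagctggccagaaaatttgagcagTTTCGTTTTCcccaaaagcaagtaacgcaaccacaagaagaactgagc
Cxcl10: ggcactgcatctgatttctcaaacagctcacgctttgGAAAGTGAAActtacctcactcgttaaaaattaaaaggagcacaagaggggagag
Rsad2: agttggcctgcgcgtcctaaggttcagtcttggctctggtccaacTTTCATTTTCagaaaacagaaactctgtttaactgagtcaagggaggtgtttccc
Ifi208: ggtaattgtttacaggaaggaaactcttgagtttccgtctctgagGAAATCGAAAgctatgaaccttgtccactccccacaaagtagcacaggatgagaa
Gm12250: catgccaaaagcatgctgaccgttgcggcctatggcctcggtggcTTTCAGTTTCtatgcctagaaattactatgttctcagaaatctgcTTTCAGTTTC
Gbp5: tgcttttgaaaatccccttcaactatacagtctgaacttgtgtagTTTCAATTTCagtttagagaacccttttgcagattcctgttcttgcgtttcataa
The first capital stretch ended 38 bases before the start site in Slfn8, 203 in Cxcl10, 110 in Rsad2, 48 in Ifi208, 81 in Gm12250 and 155 in Gbp5. A match describes the letters and is neither a binding site nor a cause.

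The supernatants differed in a small set of genes, and every gene past the threshold was higher with trap supernatant. Of 12506 genes tested, edgeR's quasi-likelihood F test with batch as a term called 22 higher, which is 0.176% of those tested, and 0 lower (0%), at an adjusted p under 0.05. The smallest adjusted p of a gene lower with trap supernatant was 0.133. Without adjustment, 355 genes (2.84%) were higher and 270 (2.16%) lower at p under 0.05. DESeq2 called 53 higher and 2 lower, and limma-voom called 29 higher and 0 lower; both held all 22. All 22 genes were above every mast cell library of their batch in each of the 3 batches, an order that 754 of all genes tested (6.03%) also had, while 731 (5.85%) had the opposite order. Their log2 differences ran from 0.41 to 2.33, and 8 were at least 2-fold.

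Single libraries moved the count of 22. It became 4 without trap replicate 1, 107 without trap replicate 2 and 56 without trap replicate 3. Leaving out mast cell replicates 1 to 5 in turn gave 12, 80, 43, 14 and 13. The fit called 0 genes without batch 1, without the batch term, or with all 14 libraries in it. In each of these fits all 22 genes were still higher with trap supernatant.

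**Figure D1:**
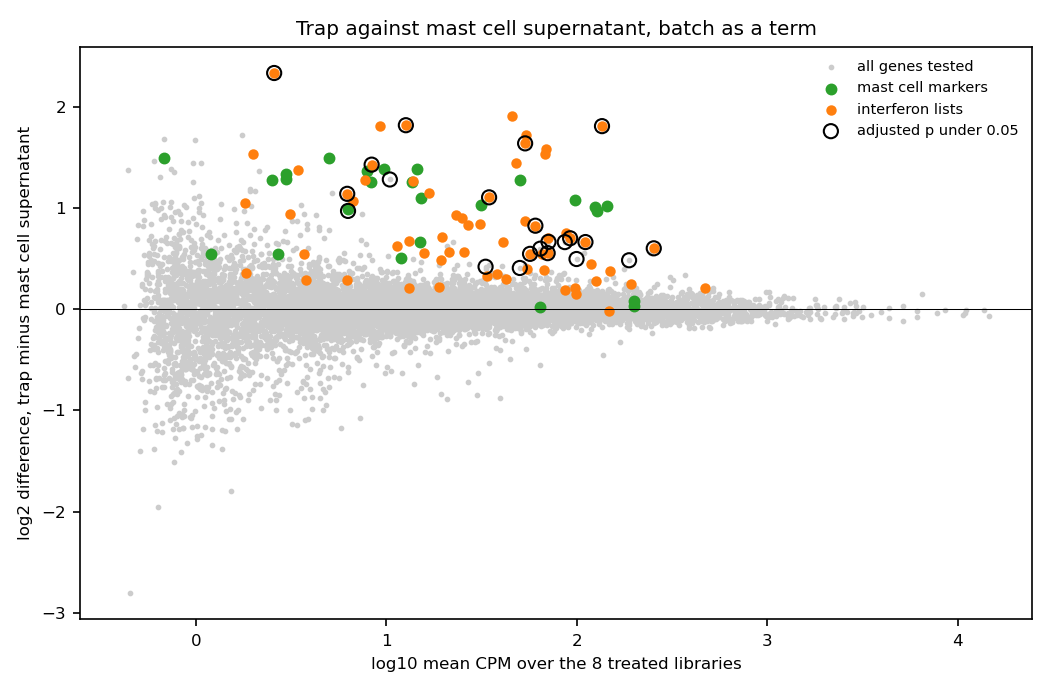
Log2 difference (trap minus mast cell supernatant, batch as a term) against log10 mean CPM of the 8 treated libraries, 1 point per gene tested, with mast cell markers in green, members of the interferon lists in orange and the 22 genes past the threshold ringed. All ringed genes lie above 0, between 0.41 and 2.33.

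Among these 22 genes, 13 belonged to 2 lists of interferon genes. The list of type I interferon response genes had 52 of 55 members tested, of which 9 were called higher, 0 lower, and 51 had a positive difference. Its median log2 difference was 0.62, against 0.00 over all genes tested, of which 51.1% were positive. The list of interferon-inducible GTPases had 11 of 17 members tested, of which 4 were called higher, 0 lower and 11 were positive, with a median of 0.94. Over both lists, 45 of 63 tested members were higher at an unadjusted p under 0.05 and 0 were lower, and 43 were above every mast cell library of their batch in all 3 batches. DESeq2 called 27 and 6 members of the 2 lists higher, and limma-voom 14 and 5. By batch, the medians over both lists were 0.84, 0.91 and 0.37 for batches 1, 2 and 3 in order.

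Ligands came first by role. Of 21 interferon ligand genes, 20 had 0 counts in all 8 treated libraries, which allows levels of up to 0.168 to 0.283 CPM, the worth of 3 counts. Ifnb1, which encodes interferon beta, was the exception and had too few counts to be tested. It had 17, 6 and 0 counts in the trap libraries of batches 1, 2 and 3. In the mast cell libraries it had 7 and 10 counts in batch 1, 5 in batch 2, and 0 and 1 in batch 3. All but 1 of the Ifnb1 counts thus lay in batches 1 and 2, under both treatments, and the untreated libraries held 4 counts in all.

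Receptor and kinase genes showed differences near 0. Of 8 tested (Ifnar1, Ifnar2, Ifngr1, Ifngr2, Il10rb, Jak1, Jak2 and Tyk2), edgeR, DESeq2 and limma-voom called 0, none reached an unadjusted p under 0.05, and the differences ran from -0.05 to 0.11. Ifnar1, which encodes a chain of the type I interferon receptor, was at 173, 213 and 197 CPM in the trap libraries of batches 1, 2 and 3. Its mast cell libraries were at 177 and 156 CPM in batch 1, 192 in batch 2, and 180 and 191 in batch 3. The groups overlapped, with a log2 difference of 0.09 ± 0.06 (SE; adjusted p = 0.978).

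The transcription factor genes of the pathway had a median difference of 0.21 over 7 tested, with 6 positive, and edgeR called 0 of them, with 3 higher at an unadjusted p under 0.05. DESeq2 called 1 and limma-voom 0. Irf9, whose product binds DNA together with STAT2, was at 90.7, 75.3 and 67.3 CPM in the trap libraries. With mast cell supernatant it was at 68.5 and 67.1 CPM in batch 1, 50 in batch 2, and 59.7 and 58.3 in batch 3. The trap library was the highest treated library of each batch, and the log2 difference of 0.39 ± 0.07 missed the threshold (adjusted p = 0.0681). Stat2 differed by 0.75 ± 0.20 (adjusted p = 0.627), with 149, 116 and 84.6 CPM against 86.9 and 72.8, then 50.2, then 79 and 65.8 CPM. For Irf7, which amplifies interferon production, the groups overlapped in batches 1 and 3, at 134, 114 and 74.5 CPM with trap supernatant and 135 and 62.1, then 80.3, then 114 and 66.7 CPM with mast cell supernatant.

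No inhibitor of interferon signalling was called, although Usp18 and Socs1 were higher in each batch. Usp18, whose product limits signalling at the receptor, was at 42.3, 17.6 and 14.8 CPM with trap supernatant. The mast cell libraries held 21.2 and 14 CPM in batch 1, 6.46 in batch 2, and 10.7 and 6.79 in batch 3. The trap library stood above the mast cell libraries of its own batch in all 3 batches, with a log2 difference of 1.15 ± 0.19 that edgeR did not call (adjusted p = 0.11). Socs1, a feedback inhibitor of JAK kinases, differed by 0.71 ± 0.16 (adjusted p = 0.16). Over the 6 inhibitors tested, edgeR called 0, 2 were higher at an unadjusted p under 0.05, and DESeq2 and limma-voom each called 1.

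Among sensors of nucleic acid edgeR called 1 gene higher, DESeq2 2 and limma-voom 1. Ifih1 encodes MDA5, a sensor of long double-stranded RNA (chromosome 2, 62595798 to 62646255, minus strand). Its level was 106, 54.4 and 51.2 CPM in the trap libraries of batches 1, 2 and 3. With mast cell supernatant it was 65.8 and 58.3 CPM in batch 1, 39.7 in batch 2, and 40.3 and 38.9 in batch 3. Trap supernatant gave the higher level in every batch and the log2 difference was 0.55 ± 0.08 (adjusted p = 0.0148). Over 17 sensing genes tested, 15 were positive, the median was 0.18, and 6 were higher at an unadjusted p under 0.05 with 0 lower. Ddx58, the gene of the RNA sensor RIG-I, differed by 0.54 ± 0.14 (adjusted p = 0.5), and Cgas, the gene of the DNA sensor cGAS, by 0.25 ± 0.10 (adjusted p = 0.916). Tmem173, the gene of the adaptor STING, was at a log2 difference of -0.10 ± 0.07.

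**Figure D2:**
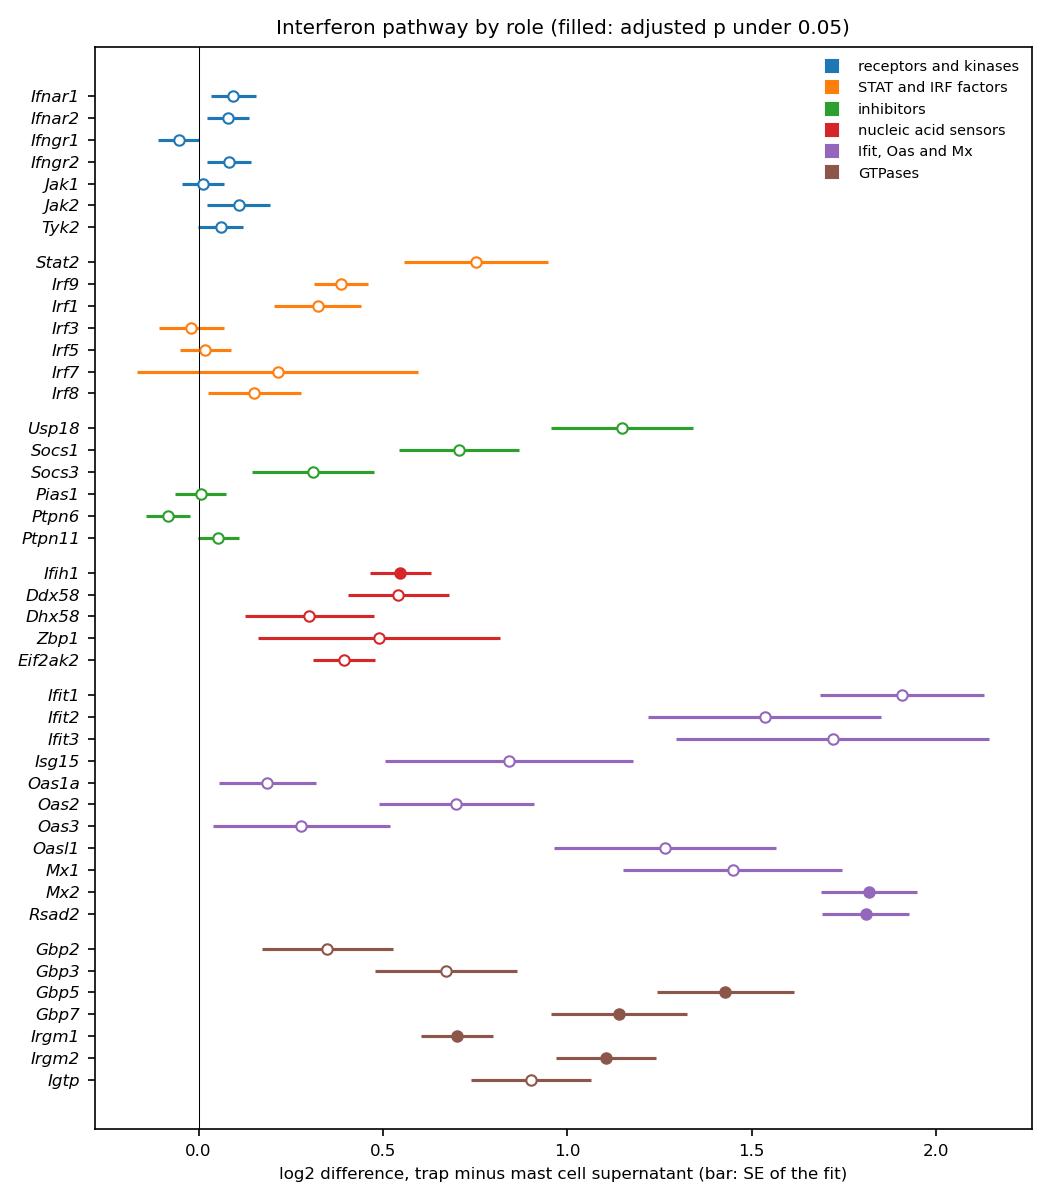
Log2 difference (trap minus mast cell supernatant) with its SE as a bar, for interferon pathway genes ordered by role, 1 row per gene, filled where the adjusted p was under 0.05. Receptors and kinases lie within -0.05 to 0.11, while Mx2, Rsad2 and 5 further filled genes lie at or above 0.55.

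Ifi208, Mx2 and Rsad2, which belong to antiviral gene families, had the 3 largest differences among the 22 genes. Rsad2, which encodes viperin, an enzyme that makes a chain-terminating nucleotide against viruses, lies on chromosome 12 (26442746 to 26456452, minus strand). Its level in the trap libraries was 522, 105 and 93.3 CPM in batches 1, 2 and 3. In mast cell libraries it was 136 and 138 CPM in batch 1, 28.6 in batch 2, and 36.7 and 24.2 in batch 3. Every trap library was higher than the mast cell libraries of its batch, while the batch 1 mast cell libraries were above the trap libraries of the other batches. The difference was 3.5-fold, or 1.81 ± 0.12 on the log2 scale (SE; adjusted p = 0.00082). Within batches it was 1.93, 1.87 and 1.64.

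Mx2, a member of the myxovirus resistance genes that the annotation lists as a polymorphic pseudogene (chromosome 16, 97535308 to 97560900, plus strand), had the smallest p. It was at 44.8, 12.4 and 9.75 CPM with trap supernatant. Mast cell libraries held 12.4 and 12 CPM in batch 1, 2.69 in batch 2, and 3.99 and 3.31 in batch 3. Trap libraries were the higher in each batch, by 1.82 ± 0.13 on the log2 scale (adjusted p = 3.64e-05). Ifi208, a member of the interferon-inducible PYHIN genes (chromosome 1, 173673675 to 173698395, plus strand), was at 9.54, 3.36 and 2.66 CPM with trap supernatant. With mast cell supernatant it was at 1.72 and 1.32 CPM in batch 1, 0.858 in batch 2, and 0.85 and 0.332 in batch 3. All 3 trap libraries of Ifi208 were above all 5 mast cell libraries, and its difference of 2.33 ± 0.26 was the largest of the 22 (adjusted p = 0.00116). The size of this difference rests on low counts, since Ifi208 averaged 2.58 CPM over the 8 libraries. Mast cell replicate 5, at 0.332 CPM, was near the 0.249 CPM that 3 counts were worth in it.

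Cxcl10, a chemokine that draws T cells and natural killer cells (chromosome 5, 92346638 to 92348889, minus strand), was at 176, 65.4 and 36.2 CPM in the trap libraries. Its mast cell libraries were at 51.3 and 52.6 CPM in batch 1, 24.1 in batch 2, and 14.4 and 8.62 in batch 3. Each trap library was higher than the mast cell libraries of its batch, with a log2 difference of 1.64 ± 0.12 (adjusted p = 0.000655). Of its relatives, Cxcl9 and Cxcl11 had too few counts to be tested. Cxcl11 had 38 counts over the 3 trap libraries, 11 over the 5 mast cell libraries and 40 over the 6 untreated ones, and Cxcl9 had 36, 23 and 60.

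Of the Schlafen genes, a family that interferon induces, Slfn8 and Slfn5 were called. Slfn8 (chromosome 11, 83002158 to 83020810, minus strand) was at 110, 76.3 and 61.8 CPM with trap supernatant. Mast cell libraries held 61.1 and 58.4 CPM in batch 1, 40.5 in batch 2, and 39.1 and 37.4 in batch 3. All 3 trap libraries of Slfn8 were above all 5 mast cell libraries, by 0.83 ± 0.07 (adjusted p = 7.06e-05). Slfn5 differed by 0.66 ± 0.09 (adjusted p = 0.0152), from 195, 121 and 112 CPM with trap supernatant. Slfn1 (1.05 ± 0.33, adjusted p = 0.557) and Slfn4 (0.36 ± 0.39, adjusted p = 0.983) were not called. Within batches 1, 2 and 3 the difference of Slfn4 was 1.25, -0.03 and -0.53.

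Further called members of the response list were Parp14 and Trim30a. Parp14, which encodes an enzyme that attaches ADP-ribose to proteins, was at 415, 280 and 252 CPM in the trap libraries. The mast cell libraries were at 275 and 263 CPM in batch 1, 155 in batch 2, and 190 and 196 in batch 3. The groups did not overlap within a batch, and the difference was 0.60 ± 0.07 (adjusted p = 0.00334). Trim30a, a tripartite motif gene, differed by 0.55 ± 0.09 (adjusted p = 0.0267).

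**Figure D3:**
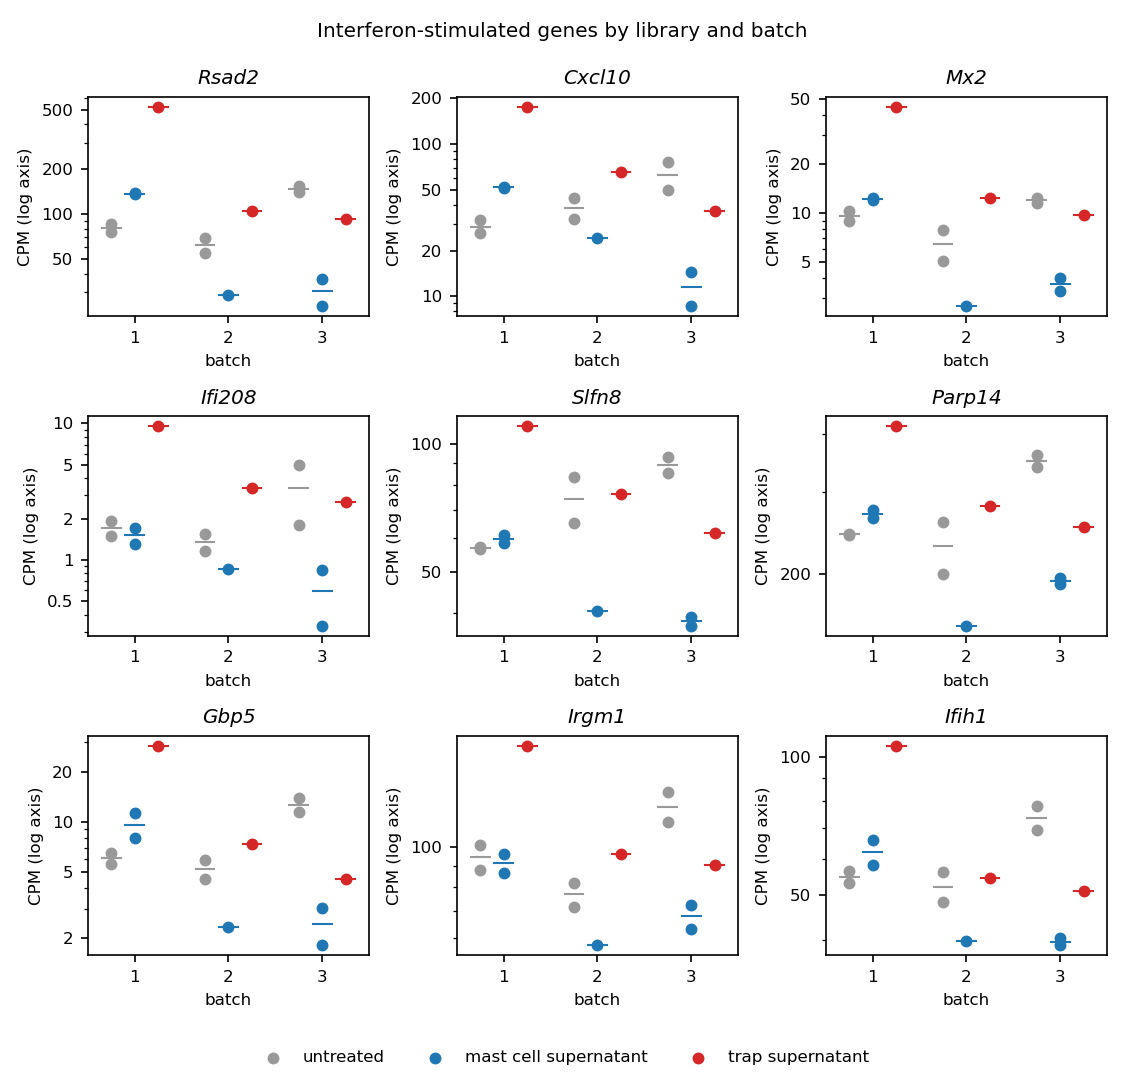
Level (TMM-normalised CPM, log axis) of 9 called genes by batch, with 1 point per library for untreated macrophages (grey), mast cell supernatant (blue) and trap supernatant (red) and a line at the mean of each group in a batch. The red points lie above the blue points of the same batch in every panel, and in batch 3 both lie below the grey points except for the red point of Ifi208, which lies between them.

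Several familiar members were not called although their trap libraries were high. Ifit1, which encodes a protein that binds foreign RNA ends, was at 153, 53 and 42.2 CPM with trap supernatant. With mast cell supernatant it was at 45.7 and 31.8 CPM in batch 1, 10.8 in batch 2, and 18.4 and 11.2 in batch 3. The trap library was the higher in each batch, and the log2 difference was 1.91 ± 0.22 at an adjusted p of 0.0877. Ifit3 differed by 1.72 ± 0.43 (adjusted p = 0.719), Mx1 by 1.45 ± 0.30 (adjusted p = 0.531) and Isg15, a ubiquitin-like modifier, by 0.84 ± 0.34 (adjusted p = 0.978). In Isg15 the groups overlapped in batch 3, where the trap library was at 21.6 CPM and the mast cell libraries at 23.4 and 12.8 CPM. Bst2, the gene of the membrane protein tetherin, was the single tested member of both lists with a negative difference, -0.01 ± 0.12.

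Among the GTPases, 4 of 11 tested genes were called. Gbp5 encodes a guanylate-binding protein that acts on microbe-holding vacuoles and on inflammasomes (chromosome 3, 142493978 to 142522344, plus strand). It was at 28.7, 7.38 and 4.51 CPM in the trap libraries. In the mast cell libraries it was at 7.95 and 11.2 CPM in batch 1, 2.34 in batch 2, and 3.06 and 1.82 in batch 3. Trap libraries were the higher in each batch, by 1.43 ± 0.19 on the log2 scale (adjusted p = 0.0069). Gbp7, a relative of Gbp5, differed by 1.14 ± 0.18 (adjusted p = 0.0213).

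The immunity-related GTPases Irgm1 and Irgm2, which regulate the other members of their family on membranes, were also called. Irgm2 was at 71.1, 40.3 and 40.7 CPM with trap supernatant. Mast cell libraries held 31.6 and 27.6 CPM in batch 1, 14.9 in batch 2, and 28 and 23 in batch 3. All 3 trap libraries of Irgm2 were above all 5 mast cell libraries, by 1.11 ± 0.14 (adjusted p = 0.0152). Irgm1 differed by 0.70 ± 0.10 (adjusted p = 0.0152), with 176, 95.8 and 90.1 CPM in the trap libraries. Igtp, of the same family, differed by 0.90 ± 0.16 and was not called (adjusted p = 0.14). The Gbp, Irg, Slfn, Ifi200 and Ifit genes have close copies, so that the counts of single members are uncertain where reads are shared.

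The remaining 9 called genes stood in neither interferon list, with a median of 0.60. The lists are not complete, so that genes outside them may also be induced by interferon, as Samd9l is. Helz2, which encodes a helicase that coactivates nuclear receptors, was at 162, 89.5 and 81.4 CPM in the trap libraries. Its mast cell libraries were at 96.2 and 87.1 CPM in batch 1, 52.8 in batch 2, and 62.8 and 59.7 in batch 3. Trap libraries were the higher within each batch (0.66 ± 0.08, adjusted p = 0.00318). Dtx3l, a ubiquitin ligase gene whose product works with a PARP protein, differed by 0.60 ± 0.09 (adjusted p = 0.0118), and Daxx, the gene of a histone H3.3 chaperone, by 0.67 ± 0.10 (adjusted p = 0.0198).

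Rab11fip4, which encodes an effector of the small GTPase Rab11, was the 1 gene of the 22 that lay below untreated with both treatments in every batch. It was at 5.22, 16.1 and 7.74 CPM in the trap libraries of batches 1, 2 and 3. With mast cell supernatant it was at 2.96 and 3.78 CPM in batch 1, 7.83 in batch 2, and 3.99 and 2.73 in batch 3. Untreated libraries held 25 and 26.8 CPM in batch 1, 37.9 and 37 in batch 2, and 19.3 and 11.1 in batch 3. Trap supernatant was the nearer to untreated in every batch (0.97 ± 0.16 above mast cell supernatant, adjusted p = 0.0267).

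The other 5 of the 9 fall outside the rule by which genes are named and were picked after their values were seen. Gm12250, listed as a processed pseudogene beside Irgm2 in the annotation release used here, differed by 1.28 ± 0.16. The RefSeq start site used above for Gm12250 lies upstream of that pseudogene model, which begins at position 58187739. Samd9l, an antiviral gene that interferon induces, differed by 0.50 ± 0.07. Gm8995, an annotated pseudogene, differed by 0.48 ± 0.07, Rnf34, a ubiquitin ligase gene, by 0.42 ± 0.08 and Frmd4a, a scaffold protein gene, by 0.41 ± 0.07. Rnf34 was the closest to the threshold (adjusted p = 0.0496).

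The promoter letters printed above were counted in every window, as a description with no test. Windows existed for 18 of the 22 genes, and 11 of these (61.11%) held a match. Of the called genes in the interferon lists 10 of 11 (90.91%) held one, and of those outside the lists 1 of 7 (14.29%), which was Gm12250. Interferon list members that were tested and not called held one in 19 of 38 (50%). Among all 9430 tested genes with a window the share was 3.393%, and it was 3.463% among all 27025 genes with a RefSeq window. Gm12250 and Irgm1 had 2 matches each in 1 window. Slfn8 had 2 matches over 2 windows, with 1 in the window printed above, so that the same letters may be counted in both. No window was used for Mx2, Parp14, Gm8995 and Rab11fip4.

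Trap and mast cell libraries lay at different levels relative to the untreated libraries in the 3 batches. Over the 63 tested members of both interferon lists, the median log2 difference of trap from untreated libraries was 1.14, 0.49 and -0.39 in batches 1, 2 and 3. For mast cell supernatant it was 0.34, -0.46 and -0.82. These values share their untreated libraries and carry no test. In batch 1 the trap library was above both untreated libraries in 63 of 63 members, in batch 2 in 56 and in batch 3 in 1, where the shares over all genes tested were 39.6%, 34.3% and 34.2%. Mast cell libraries were below both untreated libraries in 1, 52 and 51 members, where the shares over all genes tested were 30.7%, 39.2% and 25.4%.

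Rsad2 shows this order in single libraries. Untreated libraries held 75.4 and 86.5 CPM of Rsad2 in batch 1, 69.2 and 55 in batch 2, and 154 and 140 in batch 3. The trap library was thus above the untreated ones in batches 1 and 2 and below them in batch 3, where the mast cell libraries were lower again. For Mx2 the untreated libraries were at 8.94 and 10.4, then 7.9 and 5.08, then 12.3 and 11.6 CPM, and for Gbp5 at 5.61 and 6.52, then 5.87 and 4.53, then 11.5 and 13.9 CPM. Both genes had the same order.

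Mast cell transcripts were also present in the treated libraries and moved with batch. The summed level of 30 mast cell markers was 626, 1189 and 2798 CPM in the trap libraries of batches 1, 2 and 3. In mast cell libraries it was 603 and 680 CPM in batch 1, 1979 in batch 2, and 739 and 687 in batch 3, and it was 341 to 450.0 CPM in untreated libraries. Of the 30 markers, Mcpt9 had 0 counts in all 8 treated libraries. In the fit over the 3 batches 25 of 25 tested markers had a positive difference, with a median of 1.08, above the 0.62 of the interferon response list. By batch their median was -0.03, -0.74 and 3.02, and edgeR, DESeq2 and limma-voom called 0 of them over the 3 batches, with 0 at an unadjusted p under 0.05. The medians over both interferon lists in the same batches were 0.84, 0.91 and 0.37. The part of mast cell transcripts in the interferon differences was not tested in any batch.

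Cpa3, which encodes the mast cell granule protease carboxypeptidase A3, shows the pattern by library. It was at 12.6, 105 and 340 CPM with trap supernatant. Mast cell libraries held 11.5 and 14.5 CPM in batch 1, 214 in batch 2, and 44 and 39.6 in batch 3, and untreated libraries 0 to 0.0616 CPM. With trap supernatant Cpa3 was level with the mast cell libraries in batch 1, lower in batch 2 and higher in batch 3. Neutrophil markers gave no such split, with summed levels of 127 to 426 CPM with trap supernatant, 117 to 433 CPM with mast cell supernatant and 148 to 498 CPM in untreated libraries, and 0 of 19 tested called by any of the 3 tools or at an unadjusted p under 0.05.

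The trap against mast cell difference of batch 3 was also set against that of batch 1. Of 12506 genes, edgeR called 74 (0.592%), of which 71 (0.568%) were more positive in batch 3 and 3 (0.024%) more negative, and 763 passed at an unadjusted p under 0.05. None of the 74 was among the 22. Mast cell markers made up 13 of them, and a further 22 belonged to the lists of immediate early, chemokine, inflammatory cytokine, NF-kB, cAMP or prostaglandin genes. Batches 1 and 3 each held a single trap library, and the 2 residual degrees of freedom came from the mast cell pairs within a batch. The p-values of this test therefore compare these libraries and do not show that the treatments act differently by batch. In simulated tables its share of false calls was above the threshold of 0.05. The count was 247, 128, 77 and 152 without mast cell replicates 1, 3, 4 and 5.

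Mast cell transcripts led the 74. The difference between batches was 3.03 ± 0.20 for Cpa3 (adjusted p = 3.53e-12), 3.25 ± 0.28 for Kit, the stem cell factor receptor (adjusted p = 2.88e-09), and 2.93 ± 0.30 for Il1rl1, the interleukin-33 receptor (adjusted p = 3.1e-07). Serpinb1a, a protease inhibitor gene, differed by 2.36 ± 0.24 (adjusted p = 8.57e-08). Kit was at 3.41, 61.5 and 171 CPM in the trap libraries, and at 3.35 and 3.78, then 121, then 17.8 and 19.1 CPM in the mast cell libraries. It stayed at 0.137 to 0.616 CPM in untreated libraries. In batch 1 the trap library of Kit lay between the mast cell libraries, in batch 2 below and in batch 3 above them.

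Immediate early and inflammatory genes were also among the 74. Fosb, a subunit of the AP-1 transcription factor, was at 55.8, 14.2 and 6.37 CPM with trap supernatant. Mast cell libraries held 90.4 and 106 CPM in batch 1, 26 in batch 2, and 0.85 and 1.33 in batch 3. Fosb was thus lower with trap supernatant in batches 1 and 2 and higher in batch 3 (difference between batches 3.33 ± 0.33, adjusted p = 5.21e-08). Untreated libraries were at 3.71 to 6.04 CPM, so that the batch 3 mast cell libraries lay below them.

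Cxcl2, a chemokine that draws neutrophils, was at 1793, 318 and 265 CPM in the trap libraries. The mast cell libraries were at 1925 and 2644 CPM in batch 1, 796 in batch 2, and 85.9 and 82.3 in batch 3, beside 173 to 283 CPM untreated. The trap library was lower in batches 1 and 2 and higher in batch 3 (1.99 ± 0.22 between batches, adjusted p = 0.000493). The differences between batches were 1.77 ± 0.22 for Cxcl1 (adjusted p = 0.0011), 1.59 ± 0.19 for Ccl2, which draws monocytes (adjusted p = 1.48e-06), and 1.41 ± 0.24 for Ccl3 (adjusted p = 0.0311).

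Tnf, the gene of tumour necrosis factor, had smaller differences. It was at 812, 214 and 212 CPM with trap supernatant, and at 841 and 1041, then 318, then 130 and 119 CPM with mast cell supernatant (0.96 ± 0.17 between batches, adjusted p = 0.0022). Il1b, the gene of interleukin-1 beta, differed by 1.5 ± 0.32 (adjusted p = 0.0144), Ptgs2, the gene of cyclooxygenase-2, by 1.93 ± 0.28 (adjusted p = 0.0068), and Egr1, an immediate early transcription factor gene, by 1.19 ± 0.27 (adjusted p = 0.0269). Over the 3 batches together none of these was called, with log2 differences of 0.05 ± 0.28 for Tnf, -0.36 ± 0.25 for Il1b and -0.55 ± 0.57 for Ptgs2. When batch 3 was left out, edgeR called Fosb and Il1b lower with trap supernatant.

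**Figure D4:**
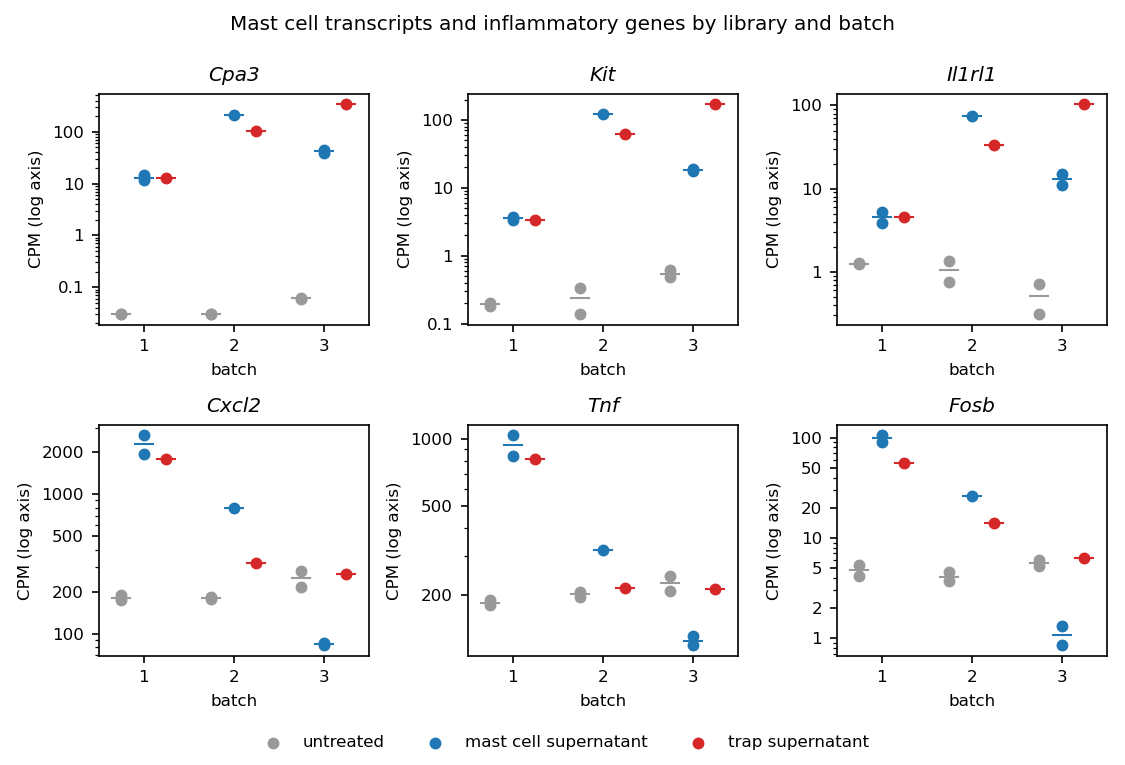
Level (TMM-normalised CPM, log axis) of 3 mast cell transcripts (top row) and 3 inflammatory or immediate early genes (bottom row) by batch, 1 point per library with a line at the group mean, libraries at 0 being drawn at the lower end of the axis. The red trap point lies above the blue mast cell points in batch 3 in all 6 panels and below the blue point in batch 2.

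By list, the median differences of the inflammatory programmes changed sign with batch. The 12 tested inflammatory cytokines had medians of 0.03, -0.59 and 0.63 in batches 1, 2 and 3, the 15 chemokines -0.12, -0.16 and 0.64, and the 30 immediate early genes -0.16, -0.25 and 0.40. The test between batches called 2, 5 and 9 of these. In the fit over the 3 batches, edgeR, DESeq2 and limma-voom called 0 members of these lists, with medians of 0.01, 0.02 and -0.01, and 1, 1 and 3 members were at an unadjusted p under 0.05. Cxcl10, the chemokine gene called above, stood in the interferon response list and not in the chemokine list. The interferon lists had 1 gene among the 74, Oasl1, whose difference was smaller in batch 3, by -1.37 ± 0.32 (adjusted p = 0.048).

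**Figure D5:**
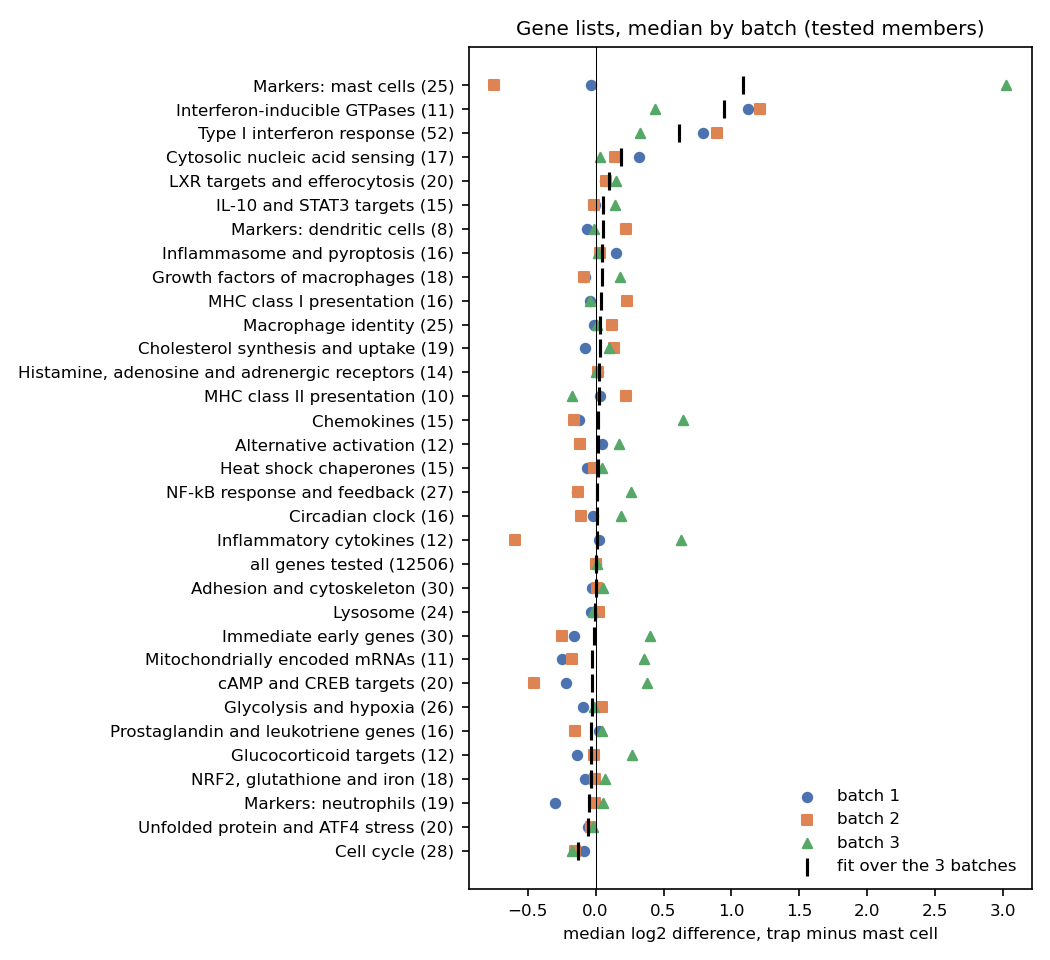
Median log2 difference (trap minus mast cell supernatant) of the tested members of each gene list with at least 8 of them, within batch 1 (circles), batch 2 (squares) and batch 3 (triangles) and over the 3 batches (bars), with the number tested in brackets. The interferon lists lie above 0 in every batch, while the mast cell markers run from -0.74 in batch 2 to 3.02 in batch 3.

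Genes lower with trap supernatant did not pass the threshold. The cell cycle list had the lowest median of the lists with at least 8 members tested, with 22 of 28 tested members negative and a median of -0.13. EdgeR, DESeq2 and limma-voom called 0 of them, and 7 were lower and 0 higher at an unadjusted p under 0.05. Mcm5, a subunit of the replicative helicase, was at 35, 52 and 18.9 CPM in the trap libraries. Its mast cell libraries were at 43.8 and 40.9 CPM in batch 1, 68.8 in batch 2, and 30.8 and 24.3 in batch 3. The trap library was the lower in each batch, and the log2 difference of -0.40 ± 0.09 had an adjusted p of 0.159. Mcm3 (-0.32 ± 0.08), Mcm2 (-0.37 ± 0.10), Rrm2, a subunit of ribonucleotide reductase (-0.32 ± 0.09), and Uhrf1, which maintains DNA methylation (-0.32 ± 0.08), had adjusted p-values of 0.249 to 0.346. With no filter on low counts, edgeR called Mcm2, Mcm3, Mcm5 and Col4a1 lower among 37 genes.

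Outside the cell cycle, the lower genes with the smallest p were of varied function. Klf2, a transcription factor gene, was at 34.4, 14.6 and 8.79 CPM with trap supernatant and at 44.4 and 43.7, then 18.9, then 10.7 and 10.9 CPM with mast cell supernatant. Its trap libraries were the lower in each batch, by -0.35 ± 0.08 on the log2 scale (adjusted p = 0.181). Col4a1, a collagen IV chain gene, differed by -0.44 ± 0.12, Dmpk, a kinase gene, by -0.31 ± 0.08, and Fam57b, a ceramide synthesis gene, by -0.57 ± 0.16, with adjusted p-values of 0.371 to 0.393. Rpl14-ps1, a ribosomal protein pseudogene, differed by -0.57 ± 0.16 (adjusted p = 0.36).

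Of the panel of macrophage genes, Cxcl10 was called, as given above. Apart from Hmox1, the tested panel genes given here lay away from the untreated level with both supernatants. Neither they nor Hmox1 differed past the threshold between the supernatants. Pdgfa, a growth factor gene, was at 50.6, 54.1 and 52.1 CPM with trap supernatant and at 42.8 to 51.6 CPM with mast cell supernatant, against 95.4 to 140 CPM untreated. Cx3cr1, the fractalkine receptor gene, differed by 0.30 ± 0.11 (adjusted p = 0.805), and Metrnl, which encodes a secreted protein, by -0.12 ± 0.06 (adjusted p = 0.978). Pdgfa and Cx3cr1 were higher with trap supernatant at an unadjusted p under 0.05. Hmox1 was lower at the same unadjusted threshold, by -0.16 ± 0.07 (adjusted p = 0.955), and in each batch. It was at 295 to 346 CPM with trap supernatant, 305 to 398 CPM with mast cell supernatant and 289 to 363 CPM untreated. Il10, the gene of interleukin-10, was at 15.1, 10.5 and 10.7 CPM with trap supernatant and at 12.6 and 15.4, then 25.3, then 11.5 and 11.9 CPM with mast cell supernatant, so that the groups overlapped in batch 1 alone. Il6 had 9 counts over the trap libraries and 11 over the mast cell libraries and was not tested.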

How the data were processed

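RNA sequencing read counts of 14 libraries were used, of which 8 entered the comparison and 6 untreated ones gave levels only. The authors deposited a table of raw read counts, whole numbers with no normalisation. Counts were made with featureCounts 2.0.0 on GRCm38, per the submitters' processing notes; the sources used here do not give the aligner, annotation release or strand setting. Of 47937 genes, 47310 were matched by identifier to GENCODE mouse release 21, which gave symbols and coordinates, and 627 kept their identifier.

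In edgeR 4.0.16 under R 4.3.3, filterByExpr left 12506 genes, TMM scaled the libraries, and a robust quasi-likelihood fit had terms for batch and treatment. Treatment was tested by the F test with Benjamini-Hochberg adjustment over all genes tested and a false discovery rate of 0.05; adjusted p-values are those of this test, and SE is implied by its F statistic. A second fit, with treatment by batch, tested batch 3 against batch 1. DESeq2 1.42.0 and limma 3.58.1 (voom), other filters and scalings, and fits without single libraries or batches were alternatives. Levels are CPM scaled by TMM over all 14 libraries, and within-batch log2 differences use a prior count of 1. Count floors cover counting error only, since reads carried no molecular identifiers.

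Genes named are up to 15 per direction past the threshold that averaged 5 CPM or more and had 1 sign in all batches, filled to 10 by smallest p, list members past the threshold, up to 6 called genes below 5 CPM, up to 5 leading the test between batches, and a panel. Other genes named in the text, such as pathway members by role, were chosen after their values were seen. The comparison, the lists and the panel were chosen with earlier results of these data known, and the lists of receptors, factors, inhibitors and ligands were added after values were seen; no set test was run. One factor gene is not reported here and was left out of the counts over factors.

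Replicates 1 to 3 carry batch labels 1 to 3 in both groups, so their numbers mark a shared batch. Deviations of same-numbered libraries from their group means correlated at 0.559 to 0.707 over genes, and those of libraries from different batches at -0.515 to -0.127. No libraries held identical counts; chi-square per degree of freedom came to 4.49 and 5.11 for mast cell pairs of 1 batch and 39.8 to 74.7 for other pairs.

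Both tests were tested on simulated data with 200 changed genes. On average 9.28% of calls were false for trap against mast cell supernatant, and 22.9% for the test between batches. Both shares were above the threshold of 0.05.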

Additional observations from a re-analysis of the deposited data

Results flagged for a closer look

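Within the groups of 5 or 6 libraries, 6 of 110 levels tested stood apart from the rest of their group by Dixon's criterion, and chance gives about 1 in 20. Mast cell replicate 2, the single mast cell library of batch 2, was that library for 5 of them. It held 41.9 CPM of Uhrf1 (other mast cell libraries 24.5 to 28.3), 127 CPM of Dmpk (15.6 to 25.6), 52.1 CPM of Col4a1 (6.80 to 9.64), 371 CPM of Metrnl (485 to 541) and 44.7 CPM of Serpinb1a (9.82 to 11.6). Trap replicate 2 of the same batch was at 33.7 CPM of Uhrf1, 95.3 of Dmpk, 42.8 of Col4a1, 347 of Metrnl and 27.3 of Serpinb1a. Untreated replicate 3 held 4.93 CPM of Ifi208, against 1.17 to 1.92 CPM in the other untreated libraries.

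Of 55 named genes tested, 13 had a trap against mast cell difference that was not the same in batches 1 and 3 by edgeR's test of that difference, against 0.592% of all 12506 genes tested. Of the 13, Fosb, Kit, Cpa3, Il1rl1 and Serpinb1a were named because they lead this same test, so that 8 were named otherwise. The log2 change of the difference, batch 3 minus batch 1, was 3.33 for Fosb, 3.25 for Kit, 3.03 for Cpa3, 2.93 for Il1rl1 and 2.36 for Serpinb1a. It was 1.99 for Cxcl2, 1.93 for Ptgs2, 1.77 for Cxcl1, 1.59 for Ccl2, 1.5 for Il1b, 1.41 for Ccl3, 1.19 for Egr1 and 0.96 for Tnf. In batch 1 their differences ran from -0.81 (Fosb) to 0.13 (Ccl2), and in batch 3 from 0.77 (Tnf) to 3.21 (Kit). Each batch held 1 trap library, so that a batch and its trap library cannot be told apart and the test compares these libraries only.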

How the results depend on the processing

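Against 22 genes called (22 higher, 0 lower), edgeR called 24 with the DESeq2 size factors and 21 with a filter of 1 CPM in 3 libraries, and limma-voom 29. DESeq2 called 55 (53 higher, 2 lower). Without a filter on low counts 144 were called (107 and 37). The count was 0 without the batch term, 0 with all 14 libraries in the fit and 0 without batch 1, all from 0 higher and 0 lower. Without batch 2 it was 71 (60 and 11) and without batch 3 it was 55 (53 and 2). Leaving out 1 library at a time gave 4 to 107 genes, 4 to 90 higher and 0 to 17 lower. A fit of replicates 1 to 3 with the replicate block, which there is the same term as batch, called 4 genes, 4 higher and 0 lower. The block fit differs in using 6 libraries.

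In every one of these fits all 22 genes remained higher with trap supernatant, and 60 of 63 to 65 of 65 tested members of both interferon lists were positive, with medians of 0.59 to 0.81; without the filter 67 of 71 were. For the 17 called genes that the naming rule covers, 222 of 323 values under these alternatives kept the call, 101 lost it and 0 reversed. For the 38 other genes so named, 14 of 718 became called. Mx2, Slfn8, Cxcl10 and Rsad2 lost their call only without the batch term, with all 14 libraries or without batch 1. The count of genes that differed between batches, 74, was 86 with the DESeq2 size factors, 77 with the 1 CPM filter, 142 without a filter, 37 with all 14 libraries and 77 to 247 without 1 library. Depth limits genes near 3 counts, 0.168 to 0.283 CPM. The causes were not tested.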

Other observations

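Other gene lists showed no called member, and most had small medians. Unfolded protein and ATF4 stress genes had a positive difference in 3 of 20 tested members (median -0.05), and genes of LXR targets and efferocytosis in 14 of 20 (median 0.10), with 0 and 3 of them at an unadjusted p under 0.05. Cholesterol synthesis and uptake genes were positive in 14 of 19 (median 0.03), MHC class I presentation genes in 12 of 16 (0.04) and lysosome genes in 8 of 24 (-0.01). Markers of eosinophils and basophils were positive in 5 of 5 (0.54), with 1 at an unadjusted p under 0.05. Their medians in batches 1, 2 and 3 were -0.02, -0.20 and 1.88. Markers of erythroid cells and platelets were positive in 2 of 3 (0.27). Over all genes tested 51.1% were positive. EdgeR, DESeq2 and limma-voom called 0 members of each of these lists.

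Xist, the RNA that coats the inactive X chromosome of female cells, was among the 74 genes that differed between batches 3 and 1 and was picked after its values were seen. It was at 0.53, 6.71 and 23.3 CPM in the trap libraries of batches 1, 2 and 3. In the mast cell libraries it was at 0.546 and 1.04 CPM in batch 1, 13.6 in batch 2, and 3.06 and 2.4 in batch 3. The 6 untreated libraries held 0 to 0.0505 CPM. As for Cpa3 and Kit, trap replicate 3 was the highest library, followed by mast cell replicate 2 and trap replicate 2. The sex of the mice is not given in the sources used here.

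Nr4a3, an immediate early nuclear receptor gene also picked after its values were seen, was at 224, 12.5 and 19.3 CPM with trap supernatant. With mast cell supernatant it was at 130 and 179 CPM in batch 1, 61.2 in batch 2, and 2.29 and 2.73 in batch 3. Untreated libraries were at 33.4 and 30.7, then 57.4 and 52, then 85.1 and 78 CPM, so that in batch 3 both treatments lay below untreated and in batch 1 above it.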
